A study of Mus musculus with 43 samples.

Results

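White adipose tissue of female mice was compared with brain, liver and skeletal muscle of the same 4 genotype and diet groups. Genes were ranked by the ratio of the mean of the 4 white fat values to the highest of the 3 other tissue means, over entries with a mean white fat level of at least 1 FPKM (fragments mapped to an entry, scaled by its length and by the mapped total). Of 42349 entries in the table, 14956 had that level, and 638 of them (4.27%) had a ratio of at least 5 and form the fat-enriched set. White fat supplied 10 of the 43 libraries and brain, liver and muscle 11 each. The groups were wild type mice fed ad libitum (WTAL, 2 white fat libraries), wild type mice on 30% dietary restriction (WTDR, 2), mice lacking insulin receptor substrate 1 in the whole body, Irs1-/-, fed ad libitum (KOAL, 3), and Irs1-/- mice on 30% dietary restriction (KODR, 3). The design text gives WTDR 3 mice, 1 more than the white fat labels. All mice were 15 months old, all ate the same chow, and restriction began in steps at 10 weeks of age and ran at 30% for 12 months. The labels say only white adipose tissue, while the methods of the study name the inguinal depot.

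The table holds 1 pooled FPKM per group and tissue with its 95% confidence interval, so every level below is the authors' value, and values of single mice and read depth are not known. In white fat the SD behind that interval was, over entries, at a median 32.5% of the FPKM in WTAL, 64.1% in WTDR, 35.7% in KOAL and 46.6% in KODR. Between 13900 and 15181 entries per white fat group reached 1 FPKM. Irs1, which the KO groups should lack, was at 2.47 FPKM (1.39 to 3.54) in WTAL, 6.56 (2.33 to 10.8) in WTDR, 5.37 (2.94 to 7.80) in the group labelled KOAL and 2.58 (1.54 to 3.62) in the group labelled KODR. The labelled KO groups were thus not at 0, so KOAL and KODR below mean the groups with those labels. The value of KOAL was above that of WTAL, but their intervals overlap. The 4 values did not pass the test of heterogeneity described below (Cochran's Q adjusted p = 0.203). Where 4 values follow a gene without group names, they stand in the order WTAL, WTDR, KOAL and KODR.

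White fat stores triglyceride in adipocytes, cells filled by a large lipid droplet. Fatty acids enter the cell from lipoproteins or are made from glucose, are esterified and coated in the droplet, and leave it again by lipolysis when catecholamines act on the cell. Adipocytes also secrete hormones such as leptin and adiponectin, and they lie among stromal cells, vessels and immune cells. The transcription factors PPARγ, C/EBPα and EBF drive the adipocyte programme.

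Adiponectin (Adipoq), the droplet protein CIDEC (Cidec) and perilipin 1 (Plin1) mark the adipocyte. Their promoters, from 250 bases before to 50 after the annotated start, are shown because these genes were used to check the tissue label. Letters of the C/EBP motif TTGCNNAA and the EBF motif CCCNNGGG, searched on both strands, are in capitals.
Adipoq: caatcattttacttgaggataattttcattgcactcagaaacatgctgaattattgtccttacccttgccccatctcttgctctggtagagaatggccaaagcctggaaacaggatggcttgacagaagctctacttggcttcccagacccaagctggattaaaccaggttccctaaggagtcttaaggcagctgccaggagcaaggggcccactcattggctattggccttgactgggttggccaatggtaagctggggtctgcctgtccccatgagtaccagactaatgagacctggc
Cidec: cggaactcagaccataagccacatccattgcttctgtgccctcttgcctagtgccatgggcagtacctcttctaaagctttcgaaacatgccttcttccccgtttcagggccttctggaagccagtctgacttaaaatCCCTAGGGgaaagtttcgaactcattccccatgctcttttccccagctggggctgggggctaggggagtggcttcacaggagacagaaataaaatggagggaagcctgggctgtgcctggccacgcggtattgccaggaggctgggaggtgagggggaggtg
Plin1: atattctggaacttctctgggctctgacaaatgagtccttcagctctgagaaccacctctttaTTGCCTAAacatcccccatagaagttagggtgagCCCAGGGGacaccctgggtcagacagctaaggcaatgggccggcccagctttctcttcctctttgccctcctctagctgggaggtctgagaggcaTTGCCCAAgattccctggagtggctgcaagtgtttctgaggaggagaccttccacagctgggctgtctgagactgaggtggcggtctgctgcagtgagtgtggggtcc
The sequences are those of RefSeq on GRCm38.p6. The Adipoq promoter is chr16:23146286-23146585 on the plus strand and holds neither motif. The Cidec promoter is chr6:113435711-113436010 on the minus strand, from 1 of 2 annotated starts, with an EBF match that begins 112 bases before the start. The Plin1 promoter is chr7:79732727-79733026 on the minus strand, with C/EBP matches beginning 187 and 58 bases before the start and an EBF match beginning 153 bases before it. A search of the promoters of 248 of the 359 protein-coding fat-enriched genes, those with an entry, found TTGCNNAA in 12.5%, against 8.65% of 8626 promoters of protein-coding genes with a white fat mean of at least 1 FPKM and 10.8% of all 27025 promoters of the same length. CCCNNGGG was present in 20.2%, 18.4% and 13.4% of the same sets, and AGGTCA, a motif of nuclear receptors, in 19.8%, 12.6% and 16.04%. The matches in the printed promoters do not overlap, AGGTCA is in none of the 3, and a match describes only the letters.

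The adipocyte markers were high in every white fat group. Adipoq (chromosome 16, 23146536 to 23158028) was at 4274 FPKM in WTAL, 7999 in WTDR, 3809 in KOAL and 5232 in KODR. In skeletal muscle it was between 62.9 and 326 FPKM, and in liver and brain it stayed under 1. Cidec was at 3106, 1529, 2033 and 2382 FPKM in WTAL, WTDR, KOAL and KODR, against 34.0 to 190 in muscle. Plin1 was at 886 (552 to 1221), 1169 (237 to 2100), 495 (161 to 829) and 999.6 (324 to 1675) FPKM, against 17.02 to 134 in muscle. For each of the 3 genes every white fat value lay above every value of the other tissues. The authors' intervals for Adipoq and Cidec reached down to 0 in all 4 groups, and their upper bounds for Adipoq were between 8820 and 17452 FPKM. The 4 white fat values of Adipoq exceeded those of muscle by a mean of 4.74 on the log2(FPKM + 1) scale, those of Cidec by 4.28 and those of Plin1 by 3.81. As genes were ranked on these same values, the differences are a description and no test is given. In bulk tissue, more cells of a type and more RNA per cell cannot be told apart.

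**Figure D1:**
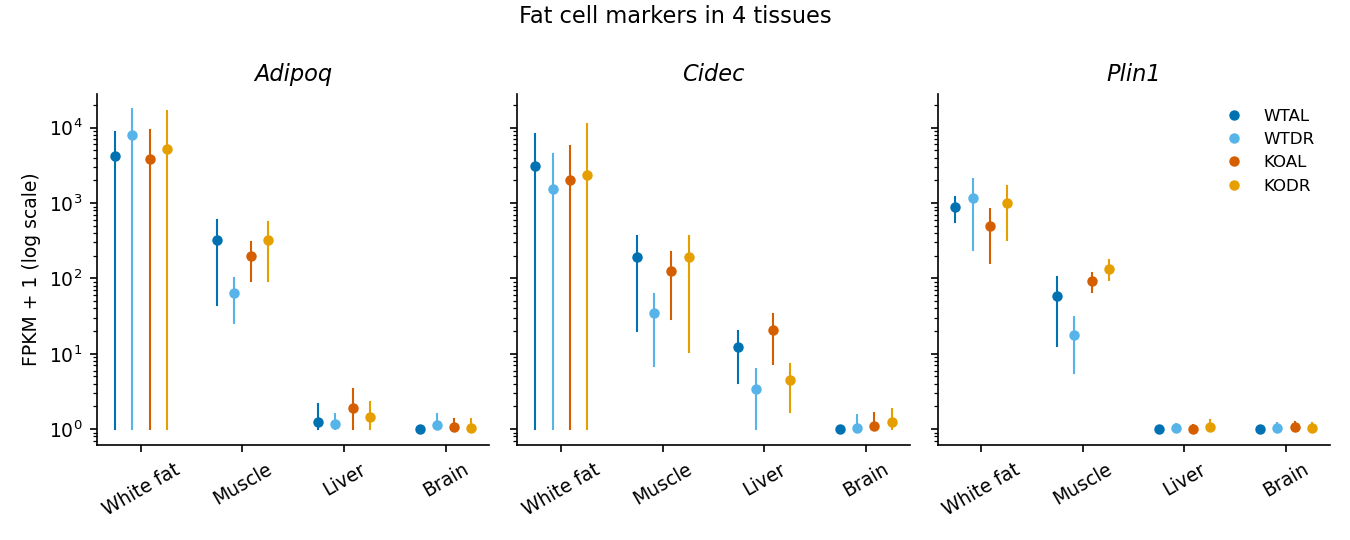
FPKM + 1 on a log axis of Adipoq, Cidec and Plin1 in white fat, muscle, liver and brain, with 1 point per genotype and diet group and the authors' 95% interval as a line. All white fat points sit above the muscle points, muscle sits above liver and brain, and the white fat intervals of Adipoq and Cidec reach 0.

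Across the whole table, 1809 of 16718 entries tested with limma (10.8%) were higher in white fat than in each of the 3 other tissues at a false discovery rate of 10%, and 577 (3.45%) were lower than in each. Scaling every group to the same FPKM sum gave 2976 higher and 85 lower, so that 97.2% rather than 75.8% of the calls were higher. The ranking used the same values, so the limma counts for the functional lists that follow describe where each list stood and are no independent support. The limma calls measure the spread between the 4 group values of each tissue, not between mice.

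Secreted factors of the adipocyte were well represented. Of 20 adipokine genes, 11 of 19 tested were higher in white fat than in each other tissue and 6 had a ratio of at least 5. Resistin (Retn) had a ratio of 21.4, with 464 FPKM in WTAL, 945 in WTDR, 311 in KOAL and 650 in KODR. Ccdc80, a secreted matrix protein, had a ratio of 17.1 and levels between 284 and 484 FPKM. Leptin (Lep), the satiety hormone, had a ratio of 12.0 and was at 616 FPKM in WTAL, 158 in WTDR, 222 in KOAL and 260 in KODR. Adipsin (Cfd), the complement factor D of fat, had a lower ratio of 5.85 at 2865 to 6207 FPKM, with 233 to 1341 FPKM of it in muscle. Retinol binding protein (Rbp4) was not a fat-enriched gene. Its ratio was 0.114, with 2813 to 5392 FPKM in liver.

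Droplet genes split between coats of the adipocyte and coats shared with other tissues. Of 15 droplet and caveola genes, 8 of 15 tested passed as higher in white fat, and 4 were fat-enriched: Cidec, Plin1, and the caveolins Cav1 (ratio 9.52, 1064 to 1734 FPKM) and Cav2 (8.23). Perilipin 4 (Plin4), at 480 to 628 FPKM, had a ratio of 3.05. Perilipin 2 (Plin2), the droplet coat of most cells, was at 250 to 552 FPKM in white fat and at 576 to 1609 FPKM in liver, a ratio of 0.393.

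Lipolysis, the release of stored fat, had the most fat-enriched genes of the metabolic lists together with lipogenesis. Of 20 genes tested, 13 were higher in white fat and 8 were fat-enriched. Hormone-sensitive lipase (Lipe) was at 661, 870, 405 and 694 FPKM in WTAL, WTDR, KOAL and KODR (ratio 8.32), and adipose triglyceride lipase (Pnpla2) at 2428, 2593, 1315 and 2126 FPKM (ratio 5.12). Both of these lipases had their lowest value in KOAL, but their 4 values did not pass the test of constancy described below. Receptors that govern lipolysis had higher ratios than both lipases. The adrenergic receptor of the adipocyte (Adrb3) reached 15.8, the lactate receptor Hcar1 15.3, the prostaglandin E receptor Ptger3 14.0, the natriuretic peptide clearance receptor Npr3 10.1 and the nicotinic acid receptor Hcar2 9.18. The glycerol channel Aqp7 had a ratio of 4.996, just short of 5.

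Among 18 genes of fatty acid uptake and triglyceride synthesis, 11 of 18 tested were higher in white fat and 6 were fat-enriched. The fatty acid binding protein Fabp4 was the most abundant gene of the list at 10117 FPKM in WTAL, 9788 in WTDR, 6314 in KOAL and 7051 in KODR, with a ratio of 15.6. Mogat2, a monoacylglycerol acyltransferase, had a ratio of 88.6 at only 7.55 to 22.1 FPKM, since muscle, the next tissue, was between 0.0659 and 0.338 FPKM. Lipoprotein lipase (Lpl) had a ratio of 6.17 at 897 to 1588 FPKM, the fatty acid transporter Cd36 5.04, Fabp5 5.402 and Mogat1 5.92. Dgat2, which makes the final ester bond of triglyceride, was at 280 to 1084 FPKM with a ratio of 1.58, and at 274 to 418 FPKM in liver.

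De novo lipogenesis makes fatty acids from glucose carbon. Of its 18 genes tested, 13 were higher in white fat than in each other tissue, and 8 were fat-enriched. Stearoyl-CoA desaturase (Scd1) was at 3943 FPKM in WTAL, 7809 in WTDR, 4832 in KOAL and 6599 in KODR (ratio 16.02). Glucose-6-phosphate dehydrogenase (G6pdx), a source of NADPH, had a ratio of 17.01, and transketolase, in an entry joined with a microRNA, had 18.2. Fatty acid synthase (Fasn) had a ratio of 10.2, acetyl-CoA carboxylase (Acaca) 11.5, the elongase Elovl6 9.42, Pnpla3 8.68 and ATP citrate lyase (Acly) 7.54. The carbohydrate response factor Mlxipl, with a ratio of 0.174, and the elongase Elovl5, with 0.147, had higher means in liver, and neither passed in either direction.

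Of 17 adipogenic transcription factors tested, 4 were higher in white fat than in each other tissue and 1, the coactivator Ppargc1b, was lower than in each. PPARγ (Pparg), at 123, 168, 63.8 and 89.7 FPKM in WTAL, WTDR, KOAL and KODR, was the only fat-enriched one, with a ratio of 7.48. C/EBPα (Cebpa) was at 187 to 315 FPKM and had a ratio of 1.03, level with liver. In insulin action, 5 of 12 genes tested were higher in white fat. The fat-enriched ones were Irs3 (ratio 15.2), a relative of Irs1 that was at 57.3 FPKM in WTAL, 70.0 in WTDR, 31.5 in KOAL and 54.97 in KODR, the vesicle protein Tusc5 (6.86), and the fatty acid receptors Ffar4 (7.31) and Ffar2 (6.60). The insulin-responsive glucose transporter Slc2a4 was lower than in muscle, at 49.4 to 152 FPKM with a ratio of 0.389. Of 13 brown and beige fat genes tested by limma, 0 were higher in white fat, also at an unadjusted p under 0.05, and 1, the coactivator Ppargc1a, was lower. The list summed to 1123 to 1927 FPKM in the muscle groups, against 86.7 to 138 FPKM in white fat. For genes that muscle expresses strongly, the comparison with muscle largely fixed this outcome. It does not tell whether brown or beige fat genes were active in white fat. Ucp1, the uncoupling protein of brown fat, was at 3.13, 11.8, 9.87 and 4.48 FPKM in the 4 white fat groups and at 0.0897 to 66.9 FPKM in the muscle groups.

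**Figure D2:**
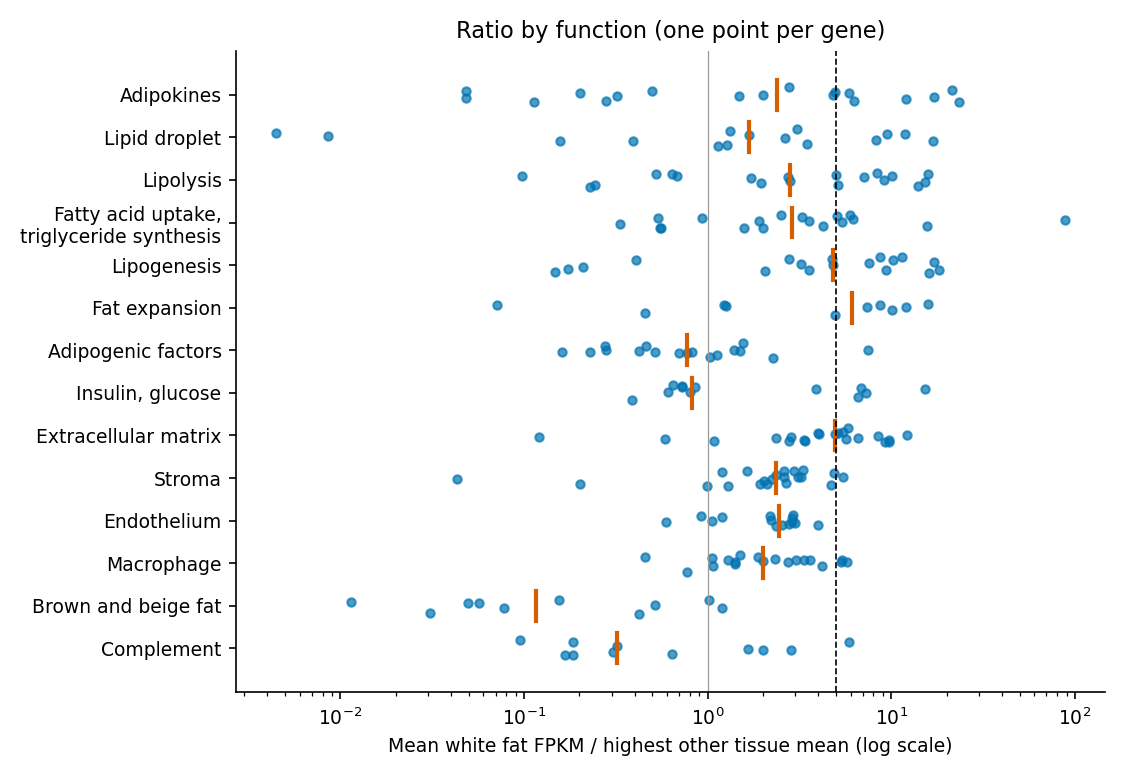
Ratio of the mean white fat FPKM to the highest other tissue mean on a log axis, with 1 point per gene and a bar at the median of each functional list, and a broken line at a ratio of 5. Fat expansion (median 6.14), extracellular matrix (4.92) and lipogenesis (4.80) have the highest medians. Brown and beige fat, a list with a higher summed FPKM in muscle than in white fat, has the lowest (0.116).

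Matrix genes made up a large block of the higher genes. Of 21 extracellular matrix genes, 17 of 20 tested were higher in white fat and 10 were fat-enriched, among them Col15a1 (ratio 12.2), the basement membrane genes Nid1 (9.77) and Col4a2 (9.21), and the type VI collagens Col6a1 (9.73) and Col6a2 (8.51). Col6a1 was at 153 FPKM in WTAL, 89.8 in WTDR, 132 in KOAL and 124 in KODR, against 11.1 to 16.2 in muscle. Stromal and progenitor genes passed in 15 of 21 and endothelial genes in 10 of 15, but only 1 (Efemp1) and 0 of them were fat-enriched. Their median ratios were 2.36 and 2.45. Smooth muscle genes passed in 6 of 9, and 4 were fat-enriched. These were the contractile genes Cnn1 (ratio 31.7), Acta2 (12.1), Tagln (8.86) and Myh11 (7.46).

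Immune cells of the tissue were represented by macrophage and B cell genes. Of 18 macrophage genes tested, 11 were higher in white fat, and Retnla (ratio 5.74), Clec10a (5.37) and Mgl2 (5.32), markers of tissue-resident macrophages, were fat-enriched. Of 11 B cell genes tested, 8 were higher. The immunoglobulin kappa constant region (Igkc) was at 5573 FPKM in WTAL, 2082 in WTDR, 4488 in KOAL and 2452 in KODR, with a ratio of 8.13. The heavy chain constant region Ighm had a ratio of 5.54. Of 197 immunoglobulin segments with a mean of at least 1 FPKM, 164 were in the fat-enriched set. Segments of this family are near-identical in sequence, so the level of any single segment is uncertain.

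The whole fat-enriched set held 359 protein-coding genes, which was 3.14% of the 11429 protein-coding genes with a mean of at least 1 FPKM, besides the 164 immunoglobulin segments, 44 small RNAs, 57 other noncoding or pseudogene entries, 10 entries that join several genes and 4 without a match in the annotation. For 583 the ratio was finite, and the runner-up tissue was muscle for 412 of these (70.7%), liver for 98 (16.8%) and brain for 73 (12.5%). The other 55 were listed at 0 in all 3 other tissues. Of those, 41 were small RNAs, and 40 were above 0 in just 1 white fat group. Of 9 families counted, the collagens had 8 of 21 eligible entries in the set, serpins 6 of 24, the Hox clusters 6 of 23 (among them Hoxb5os, an opposite-strand RNA), claudins 5 of 11, keratins 3 of 9, chemokines 3 of 21, MHC class II genes 2 of 8, CD antigens 5 of 64 and solute carriers 8 of 205. As the rule uses a mean over 4 groups, these counts include members that were high in only some of them. Over the white fat groups the claudin Cldn7 ranged 156-fold, and the keratins Krt7 6.20-fold and Krt19 4.89-fold. Protein-coding members lay on chromosome 11 in 12.0% of cases, against 8.49% of all eligible protein-coding genes. A ratio of at least 10 was found for 287 entries, and of at least 20 for 121, 42 of them protein-coding. Just inside the limit were Trpv1 (5.004), Aifm2 (5.02) and Ighv8-8 (5.03), and just outside it Aqp7 (4.996), Rcn3 (4.996) and Gm15433 (4.99).

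**Figure D3:**
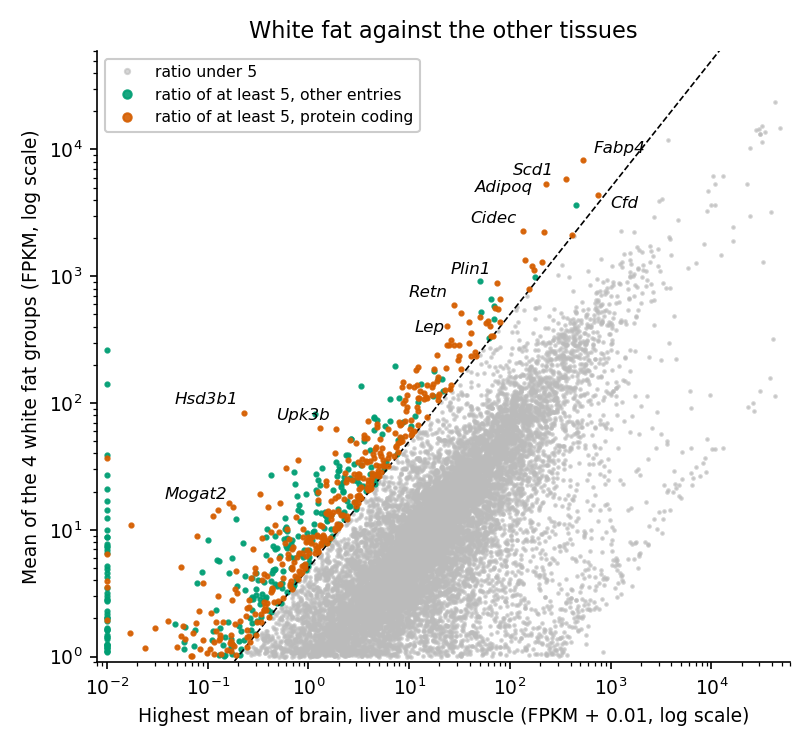
Mean FPKM over the 4 white fat groups against the highest mean of brain, liver and muscle (FPKM + 0.01), both on log axes, with 1 point per entry and a broken line at a ratio of 5. The 638 entries above the line are coloured, and Fabp4, Scd1 and Adipoq lie at its upper end while the 55 entries at 0 in the other tissues form the column at the left.

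How constant the set was over the 4 groups was described in 2 ways. Within the same genotype and diet, the ratio was at least 5 in all 4 groups for 172 of the 638 entries, in 3 for 176, in 2 for 191 and in 1 for 99. Among protein-coding members these numbers were 112, 95, 112 and 40. The 172 include Adipoq, Cidec, Plin1, Fabp4, Scd1, Cav1, Retn, Lep, Adrb3, Irs3 and the type VI collagens, whereas Cfd, Pnpla2, Lipe and Lpl were under 5 in at least 1 group. For Cfd the within-group ratio was 9.42 in WTAL, 26.6 in WTDR, 3.12 in KOAL and 2.84 in KODR. Such a ratio also moves with the level in other tissues, so a value under 5 need not mean a change in white fat. In white fat itself Cfd ranged 2.17-fold from lowest to highest group, Pnpla2 1.97-fold, Lipe 2.15-fold and Lpl 1.77-fold. The adipokine list, which holds Cfd, summed in muscle to 1156 FPKM in WTAL, 536 in WTDR, 1440 in KOAL and 1928 in KODR. The part of muscle in these ratios was not tested. The set lost 101 members when WTAL was left out of all tissues, 76 without WTDR, 85 without KOAL and 67 without KODR. The share of all FPKM taken by protein-coding members was 8.80% in WTAL, 6.49% in WTDR, 6.38% in KOAL and 6.30% in KODR.

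The second description was a test of heterogeneity, Cochran's Q on the 4 log2 FPKM values with errors from the authors' intervals. Over all 14635 entries tested, 392 (2.68%) differed among the white fat groups at an FDR of 10%. Of the 638 members, 548 could be tested, the other 90 being at 0 in at least 1 group, and 79 of the 548 (14.4%) differed. Among protein-coding members 53 of 332 (15.96%) did. A mean over 4 groups lets a gene that is high in just 1 of them into the set, so the share is partly set by the rule. Of the 112 protein-coding genes with a ratio of at least 5 in every group, 10 differed. The median fold range, highest over lowest group, was 2.69 for protein-coding members and 1.76 for all protein-coding genes tested, and 26.8% against 63.6% stayed under 2-fold. Leaving out WTAL reduced the 392 to 160 and the 79 to 31, and leaving out KOAL reduced them to 248 and 45.

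No droplet or lipolysis gene passed, where 392 of all 14635 entries tested (2.68%) did. At that share, a count of 0 in lists of 12 to 19 genes is no result about the lists. Of the lipid droplet list, 0 of 15 genes passed Cochran's Q (1 at an unadjusted p under 0.05), and of the lipolysis list 0 of 19 (4 unadjusted). With the SD divided by the square root of the number of libraries, the lipolysis receptors Adrb3, Npr3 and Hcar1 did pass. The endothelial list had 0 of 14 by both, insulin action 0 of 12 (1 unadjusted) and B cell genes 0 of 16 (1 unadjusted). Even so, all 14 endothelial genes were lower in WTDR than in WTAL, and 12 of the 14 were lower in KOAL. Their median log2 differences were -0.99 and -0.59, against -0.15 and -0.07 over all entries tested. For droplet and lipolysis genes the median fold ranges were 2.21 and 2.01. Fabp4 ranged 1.60-fold, Cav1 1.63-fold, Ccdc80 1.70-fold, Cidec 2.03-fold, Adipoq 2.10-fold and Plin1 2.36-fold, all with adjusted p = 1 by Cochran's Q. With the wide intervals of these abundant genes, such a p does not show that the levels were equal. Among the flattest protein-coding members with a mean of at least 5 FPKM were C1qtnf7 (9.01, 7.17, 7.62 and 8.22 FPKM, 1.26-fold), an adipokine-like protein, the lysosomal autophagy gene Dram1 (49.5, 43.0, 38.3 and 41.5 FPKM, 1.29-fold), the laminin chain Lamb1 (1.31-fold), the salt-inducible kinase Sik2 (1.33-fold) and the lysosomal sterol carrier Npc2 (1.34-fold).

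Lipogenesis genes differed among the groups in part. In all 18 genes the FPKM was higher in WTDR than in WTAL, in 17 it was higher in KOAL than in WTAL, and in 17 it was higher in KODR than in KOAL. The median log2 differences were 2.21, 0.96 and 1.16, against -0.15, -0.07 and 0.03 over all entries tested. Cochran's Q called 5 of the 18: Elovl6, Thrsp, Acly, Acss2 and Me1. Elovl6, which lengthens palmitate, was at 3.44 FPKM in WTAL, 126 in WTDR, 58.9 in KOAL and 160 in KODR. WTAL was the low group, and its interval (2.02 to 4.85) did not overlap with that of KOAL (28.9 to 88.8). Elovl6 rose in KOAL over WTAL by 4.10 on the log2 scale (SE 0.47, Wald adjusted p = 1.3e-14) and in WTDR over WTAL by 5.19 (SE 0.80, adjusted p = 1.4e-07). The lipogenic regulator Thrsp was at 152, 858, 523 and 1276 FPKM and rose in KOAL by 1.79 (SE 0.46, Wald adjusted p = 0.012). Acly was at 38.4, 748, 83.1 and 319 FPKM and rose in WTDR by 4.28 (SE 1.04, Wald adjusted p = 0.011). Acss2, which makes acetyl-CoA from acetate, was at 15.9, 229, 39.9 and 83.4 FPKM and rose in WTDR by 3.85 (SE 1.10, Wald adjusted p = 0.090). Fasn followed the same order, at 429, 3904, 1440 and 3218 FPKM, without passing (Cochran's Q adjusted p = 1). In the uptake and synthesis list 1 of 18 genes passed Cochran's Q. This was Agpat2, an acyltransferase of triglyceride synthesis, which was at 251, 2461, 261 and 938 FPKM and rose in WTDR by 3.30 (SE 0.67, Wald adjusted p = 0.00046). Without WTAL, Elovl6, Thrsp, Acly, Acss2 and Me1 no longer passed Cochran's Q (for Elovl6 the statistic was 110.6 with WTAL and 3.32 without it). Without WTAL the adjusted p was 0.63 for Acly and 1 for the other 4. Without WTDR, Agpat2, Acly, Acss2 and Me1 no longer passed, with adjusted p between 0.213 and 1, and Me1 also missed without KODR (adjusted p = 0.101). Elovl6 had a within-group ratio of 0.445 in WTAL and of 8.78 to 10.9 in the other 3 groups.

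Genes tied to fat expansion ran the other way, with WTAL the high group in 9 of 10 against KOAL and against WTDR. Their median ratio was 6.14, the highest of the functional lists plotted above. Sfrp5, a secreted Wnt antagonist, was at 304 FPKM (131 to 477) in WTAL, 6.26 (0 to 13.1) in WTDR, 47.7 (23.5 to 71.8) in KOAL and 52.1 (24.5 to 79.7) in KODR. The WTAL interval overlapped with none of the other 3. Sfrp5 fell in KOAL by 2.67 on the log2 scale (SE 0.55, Wald adjusted p = 0.00032) and in WTDR by 5.60 (SE 0.88, adjusted p = 2.8e-07), and the log2 difference of KO minus WT was more positive under restriction than under ad libitum feeding by 5.73 (SE 1.03, adjusted p = 5.5e-05). Wisp2, a matricellular protein of preadipocytes, was at 93.5, 8.52, 17.4 and 33.5 FPKM and fell in KOAL by 2.43 (SE 0.50, Wald adjusted p = 0.00041). The imprinted gene Mest was at 391, 47.6, 152 and 143 FPKM, an 8.22-fold range that did not pass (Cochran's Q adjusted p = 0.59). Its own ratio of 4.91 left Sfrp5 just under the limit of the set. Without WTAL, Sfrp5 (adjusted p = 0.121), Wisp2 and Peg3 (both 1) no longer passed Cochran's Q, and without KOAL Wisp2 (0.308) and Peg3 (0.11) did not. Peg3 also missed without WTDR (0.18) or KODR (0.171).

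**Figure D4:**
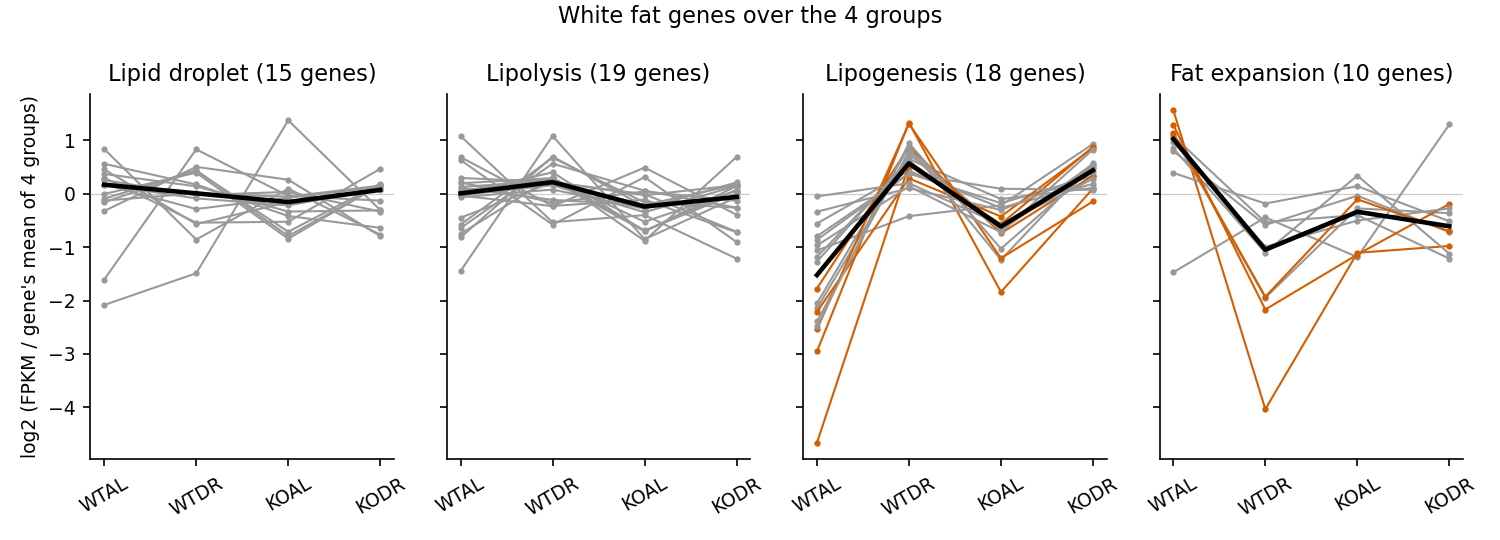
Base 2 logarithm of each gene's FPKM over its mean of the 4 white fat groups, with grey lines for genes, orange lines for genes that pass Cochran's Q at an FDR of 10% and a black line for the median, in the lists lipid droplet, lipolysis, lipogenesis and fat expansion. WTAL is the lowest point of the lipogenesis median and the highest of the fat expansion median, while the medians of lipid droplet and lipolysis stay closer to 0.

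Other parts of the tissue varied as well. The macrophage gene Retnla was at 529 FPKM in WTAL, 194 in WTDR, 126 in KOAL and 90.2 in KODR and fell in KOAL by 2.07 on the log2 scale (SE 0.46, Wald adjusted p = 0.0015), and it was the 1 macrophage gene of 19 that passed Cochran's Q. All 19 macrophage genes, however, had a lower FPKM in WTDR and in KOAL than in WTAL. The median log2 differences were -1.45 and -0.92, against -0.15 and -0.07 over all entries tested. Smooth muscle genes passed in 4 of 9. Acta2 was at 575, 97.4, 279 and 191 FPKM, highest in WTAL, whereas Cnn1 was at 4.02, 7.98, 31.4 and 21.4 FPKM and rose in KOAL by 2.96 (SE 0.56, Wald adjusted p = 4.4e-05), so these genes did not share an order. The list summed to 751, 214, 601 and 447 FPKM and that of macrophages to 1949, 719, 873 and 766. Brown and beige genes passed in 3 of 10, namely Dio2 (0.115, 0.136, 3.94 and 0.432 FPKM), which activates thyroid hormone, the elongase Elovl3 (0.123, 4.52, 0.692 and 14.7 FPKM) and the potassium channel Kcnk3 (12.4, 9.10, 9.0003 and 16.2 FPKM). Only these 10 of the 18 listed genes had the mean white fat FPKM of at least 1 that the test needed. Dio2, with a mean of 1.16, met it only through KOAL, where it was high, so its call is partly set by the filter. Elovl3 rose in KODR against KOAL by 4.41 (SE 0.97, Wald adjusted p = 0.0031). Of 21 matrix genes 1 passed, the collagen crosslinker Lox (54.8, 15.7, 26.7 and 13.4 FPKM). In 19 of the 21 the FPKM was lower in WTDR than in WTAL, and likewise in 19 lower in KOAL. Their median log2 differences were -0.97 and -0.32. Chosen after their values were seen, the matrix gene Thbs2 (41.6, 4.29, 16.2 and 9.60 FPKM) and the retinol binding protein Rbp7 (37.8, 9.82, 27.5 and 17.5 FPKM), both fat-enriched, fell in WTDR against WTAL by 3.28 and 1.94 (Wald adjusted p = 6.8e-05 and 0.00014). Without WTAL, Cochran's Q no longer called Retnla, Acta2, Cnn1, Lox (adjusted p = 1 for each), Thbs2 (0.385) or Igkv12-89 (0.425). It no longer called Acta2 (0.775) or Rbp7 (0.213) without WTDR, Cnn1 (0.383) or Kcnk3 (0.178) without KOAL, or Elovl3 (0.25), Kcnk3 (1) or Lox (0.789) without KODR. Dusp9, a phosphatase, was at 7.55, 0.332, 2.48 and 0.870 FPKM and fell in WTDR by 4.51 (Wald adjusted p = 1.8e-08). Among immunoglobulin members 23 of 150 passed Cochran's Q, with the highest value in WTAL for 12, in KOAL for 10 and in KODR for 1. Ighg1, a heavy chain constant region, was at 6.47, 4.27, 185 and 49.6 FPKM, and the segment Igkv12-89 was at 268, 6.29, 50.6 and 5.78 FPKM.

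Each pair of groups was compared by a Wald test on log2 FPKM. A gene high in just 1 group can enter the set through that group. The counts of members below are therefore partly set by the rule. Against WTAL, KOAL had 29 of the 548 tested members higher and 10 lower, beside 147 (1%) and 32 (0.219%) of all 14635 entries. The members as a whole did not lean that way: at an unadjusted p under 0.05, 55 were higher and 61 lower, and 352 of the 548 had the lower value in KOAL, with a median log2 difference of -0.37 against -0.07 over all entries tested. With the SD divided by the square root of the number of libraries, the calls over all entries were 423 higher and 384 lower. WTDR against WTAL gave 4 higher and 11 lower, beside 34 (0.232%) and 41 (0.28%), and 29 higher and 64 lower at an unadjusted p under 0.05. Centring on the median turned the totals over all entries into 47 higher and 30 lower. KODR against WTDR gave 6 higher and 0 lower, beside 29 (0.198%) and 6 (0.041%). At an unadjusted p under 0.05 it gave 36 higher and 3 lower members. KODR against KOAL gave 6 higher and 9 lower, beside 34 (0.232%) and 55 (0.376%), and 28 higher and 33 lower at an unadjusted p under 0.05. The test of the interaction of genotype and diet called 1 member, the kappa segment Igkv17-121, with a more positive difference of KO minus WT under restriction, and 0 with a more negative one (29 and 12 at an unadjusted p under 0.05), beside 9 entries (0.0615%) in each direction, or 7 and 13 after centring. KOAL against WTAL and WTDR against WTAL share the WTAL libraries, as KODR against WTDR and WTDR against WTAL share WTDR.

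Some members had nearly all of their white fat level in 1 group. Of the 638 members, 91 had at least 80% of their summed white fat FPKM in a single group, 32 of them protein-coding: 21 in KOAL, 10 in KODR, 1 in WTAL and 0 in WTDR. In KOAL these included Hsd11b2, the enzyme that inactivates glucocorticoid in mineralocorticoid target epithelia (0.693, 0.202, 31.4 and 3.58 FPKM in WTAL, WTDR, KOAL and KODR), and Plekhs1 (0.200, 0.0553, 55.3 and 1.37 FPKM). The adhesion gene Epcam was also highest in KOAL, at 0.255, 0.0599, 10.8 and 5.31 FPKM. In KODR the entries included the steroid synthesis genes Hsd3b1 (listed at 0 in the other 3 groups, 335 FPKM in KODR) and Cyp11a1 (in a joined entry, 0.506, 0.168, 0.454 and 543 FPKM), and Prss35 (0.0309, 1.30, 0.213 and 50.5 FPKM). These entries were picked for the level in 1 group, so no test between groups is given for them.

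Marker lists of other organs showed where such RNA was present. A list of 18 ovary genes, written after these values were seen, summed to 7.78 FPKM in WTAL, 10.6 in WTDR, 13.8 in KOAL and 1232 in KODR, with 1, 3, 3 and 12 genes at 1 FPKM or more. A list of 16 uterus and oviduct genes, written likewise, summed to 25.8, 30.0, 275 and 195 FPKM. Within it Prap1 was listed at 0 in WTAL and WTDR and at 73.9 and 74.3 FPKM in KOAL and KODR. The epithelial list of 23 genes summed to 25.4, 38.2, 540 and 165 FPKM, of which the tight junction gene Cldn3 took 2.64, 2.68, 337 and 15.3, while the milk genes Csn1s1, Csn2 and Wap were at or near 0 in all 4 groups. Skeletal muscle genes summed to 540, 515, 1597 and 907 FPKM, against at least 165443 in muscle itself, and 13 of 19 passed Cochran's Q. Muscle creatine kinase (Ckm) was at 2.204 FPKM in WTAL, 114 in WTDR, 148 in KOAL and 81.0 in KODR, and did not pass without WTAL (Cochran's Q adjusted p = 1), as Cldn3 did not without KOAL (adjusted p = 1). Genes of the mesothelium, the lining of the body cavity, formed a list that was also written after these values were seen. They were present in all 4 groups, summing to 53.5, 123, 80.9 and 121 FPKM. Of the 7 genes, 6 were fat-enriched, a count partly fixed by that choice. Upk3b (34.6, 85.0, 49.3 and 82.6 FPKM) had a ratio of 33.4. Liver genes summed to 1609 to 1841 FPKM, mostly Cyp2e1, and red blood cell genes to 4297 to 21032 FPKM. By limma 0 of 20 muscle, 0 of 15 liver, 0 of 16 brain and 0 of 6 red blood cell genes were higher in white fat, also at an unadjusted p under 0.05. For the muscle, liver and brain lists this was fixed by the comparison, which sets white fat against those same tissues. It does not tell whether such RNA was present in white fat. For T cells 4 of 7 were higher, for complement 4 of 11, for skin 1 of 2 and for peripheral nerve 2 of 6. The lists did not share an order. The ovary, uterus and oviduct, epithelial and skeletal muscle sums were highest in KOAL or KODR. Liver sums stayed between 1609 and 1841 FPKM through Cyp2e1, which ranged 1.70-fold, but the single liver genes were not flat. Their median fold range was 10.2, against 1.81 over all entries tested, and 3 of 15 passed Cochran's Q. In KODR 14 of the 15 were lower than in KOAL, with a median log2 difference of -2.95. The red blood cell sum was lowest in KOAL. The part of any of these lists in the counts above was not tested. The lipid droplet list, by contrast, summed to 7599, 6066, 4997 and 6159 FPKM, with its lowest sum in KOAL.

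**Figure D5:**
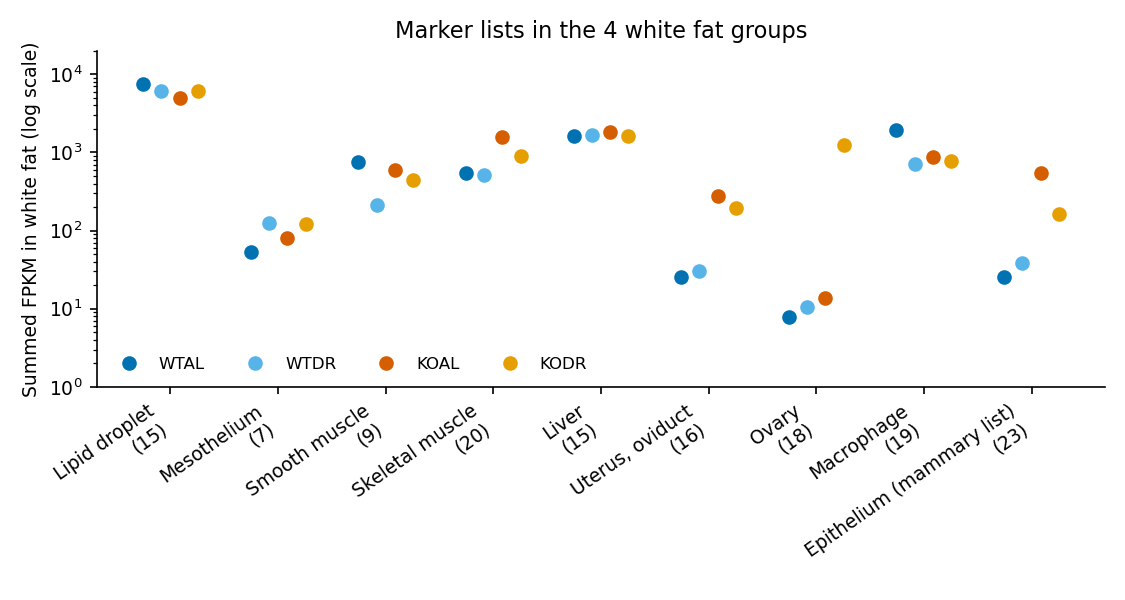
Summed FPKM in white fat, on a log axis, of marker lists with 1 point per group, for 9 lists. The ovary list stands at 1232 in KODR against 7.78 to 13.8 in the other groups, and the uterus and epithelium lists are higher in KOAL and KODR than in WTAL and WTDR, while the lipid droplet list stays between 4997 and 7599.

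Genes of body position were fat-enriched in part. Of 15 measured, Hoxc8 (ratio 16.4, 18.3, 41.5, 11.5 and 25.3 FPKM), Hoxb7 (8.94) and Hoxc6 (5.10) were in the set. Tbx15, Shox2 and En1, transcription factors known from subcutaneous fat of mice, were at most 0.992, 0.388 and 0.306 FPKM in the white fat groups, against a mean of 84.5 FPKM of Tbx15 in muscle. The tissue is called white fat here, as the labels do, and which depot was sampled was not tested. Hoxa10, with a ratio of 1.46, was at 6.50, 5.09, 21.2 and 2.87 FPKM and rose in KOAL over WTAL by 1.71 on the log2 scale (SE 0.34, Wald adjusted p = 0.00014), and fell in KODR against KOAL by 2.89 (SE 0.35, adjusted p = 7.9e-13). The uterus and oviduct list, which holds its neighbour Hoxa11, was also higher in sum in KOAL than in WTAL, Hoxa10 did not pass Cochran's Q without KOAL (adjusted p = 0.152), and the list's part in the Hoxa10 values was not tested.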

How the data were processed

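White adipose tissue, brain, liver and skeletal muscle of 4 genotype and diet groups were profiled by polyA RNA sequencing on an Ion Proton instrument. The authors trimmed reads with cutadapt 1.5 (submitters' processing notes), mapped them to GRCm38 and ran Cuffdiff 2.2.1 with geometric normalisation, and deposited 1 FPKM per entry for each group and tissue, pooled over libraries, with 95% bounds. Depth and values per library are not in that table, which holds 0 columns of other samples, and its comparison columns (fold changes, p-values, q-values) were not used. Of 42349 entries, 873 join several genes. Because libraries are pooled, no SD between mice can be given, and precision follows from the bounds alone.

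The fat-enriched set was formed with a ratio of at least 5 and a mean of at least 1 FPKM. Tissues were compared with limma 3.58.1 (R 4.3.3) on log2(FPKM + 1), which understates changes of low entries, with the genotype and diet group as a block, over entries with a mean over the 16 values of at least 1, and an entry was called when all 3 contrasts passed a Benjamini-Hochberg false discovery rate of 10% in 1 direction. As the ratio that formed the set used the same values, limma calls of members and lists are a description and not support. Within white fat, log2 FPKM of the 4 groups was compared by Cochran's Q (3 degrees of freedom) and pairs of groups by Wald tests, with an SD of the distance from the FPKM to its upper bound divided by 2, for entries above 0 in all groups, again with Benjamini-Hochberg adjustment over all entries (numpy 2.4.6, pandas 2.3.3, scipy 1.17.1). All tests were checked on simulated data. Biotypes came from GENCODE by gene name, and promoters from RefSeq.

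The members and gene lists were chosen with earlier results of these data known. Named genes were the markers, the members highest in finite ratio, in level, in fold range or in Cochran's Q, those with the smallest fold range, those next to the limit of 5, and the most abundant and fat-enriched genes of each list. Lum, Thbs2, Notch3, Rbp7, Lcn2, Acss2, Me1, Peg3 and Igkv17-121 were named after their values were seen. The ovary, uterus and oviduct, and mesothelium lists, the scaling to equal FPKM sums and the restriction to single protein-coding genes were likewise chosen after seeing the data. Alternatives changed the pseudocount, the filter, the ratio, the error, the centring and the groups included. A few genes are not reported here.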

Additional observations from a re-analysis of the deposited data

Results flagged for a closer look

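The test of the interaction called 18 entries, 9 in each direction, and 5 of them are genes named here, in which the difference between genotypes depended on the diet (KO minus WT under restriction, less KO minus WT under ad libitum feeding, on the log2 scale, Wald test with Benjamini-Hochberg adjustment). For Sfrp5 the interaction was 5.73 (adjusted p = 5.49e-05). It was at 304 FPKM in WTAL and 6.26 in WTDR, but at 47.7 in KOAL and 52.1 in KODR. The kappa light chain segment Igkv17-121 had 7.93 (adjusted p = 0.00689), with 61.5, 0.579, 10.9 and 24.9 FPKM in WTAL, WTDR, KOAL and KODR, and reads of near-identical segments may be shared with it.

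For the other 3 named genes the interaction was negative. Muscle creatine kinase (Ckm) had -6.57 (adjusted p = 0.00168), with 2.204 FPKM in WTAL and 114, 148 and 81.0 in the other 3 groups. It was not alone among skeletal muscle genes: the interaction was negative for 17 of 19 tested and positive for 2. Their median was -4.23, against 0.14 over all entries tested. Hoxa10 had -2.53 (adjusted p = 0.000118), with 21.2 FPKM in KOAL and 6.50, 5.09 and 2.87 in WTAL, WTDR and KODR. The matrix proteoglycan lumican (Lum) had -1.4 (adjusted p = 0.000175), with 20.9, 47.7, 32.7 and 28.2 FPKM. Of the 5, only Igkv17-121 has a ratio of at least 5.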

How the results depend on the processing

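Values of named genes kept their direction and side of the threshold in 1619 of 1709 repeats, 79 no longer passed, 11 passed newly and 0 reversed. Cochran's Q is never negative, so its repeats could not reverse. The limma and Wald repeats covered only genes that had passed with the main settings, so the lack of reversals is partly built in. Of 75 repeated counts, 53 stayed within 1.5 times. The entries higher in white fat (1809) numbered 2727 without a filter, 1042 with a mean of at least 5 over the 16 values and 2976 with equal FPKM sums, and 1567 to 1744 without 1 group. The fat-enriched set (638) numbered 1677 with a ratio of at least 2, 287 with at least 10, 323 with a pseudocount of 1 in the ratio, 172 with the ratio required in all 4 groups, 1052 without muscle, 1128 with equal FPKM sums and 359 with single protein-coding genes only, and 596 to 663 without 1 group. Entries that differed by Cochran's Q (392) numbered 1929 with the SD divided by the square root of the number of libraries, and 160 to 329 without 1 group. With that smaller error the Wald calls were 807 for KOAL against WTAL, 387 for WTDR against WTAL, 149 for KODR against WTDR, 983 for KODR against KOAL and 175 for the interaction, in place of 179, 75, 35, 89 and 18. With a mean of at least 5 FPKM, KOAL against WTAL gave 109, and with a pseudocount of 1, KODR against WTDR gave 59, KODR against KOAL 154 and the interaction 43. The cause of these shifts was not tested, apart from the smaller error and the fewer entries built into them. Besides the losses given above, Cochran's Q no longer called Myh11 without WTAL or KOAL, Krt19 without either, Lcn2 without WTAL, WTDR or KODR, and Lum and Notch3 without WTDR. At an FDR of 5%, Cochran's Q lost Lox, Acta2, Me1, Peg3 and Lcn2, and the Wald test lost Acss2 in WTDR against WTAL, which it also lost without a filter. Cochran's Q lost Lox without a filter, Lox, Acta2 and Peg3 after centring, and Me1 with equal FPKM sums. With the smaller error it also called Lep, Retn, Adrb3, Npr3, Hcar1, Irs3, Pparg, Mogat2, Mest and Upk3b. In limma, Sfrp5 was no longer higher without KOAL or KODR. No paired analysis was possible because the deposited columns carry no replicate numbers. Depth is unknown, and the intervals of abundant genes such as Adipoq reached 0, which limits what Cochran's Q could call among them.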
